A study of Mus musculus with 3 samples.

Results

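The cells described here were the *Cilp*-high elastic matrix fibroblasts of the Day 14 skin wound, 1357 of the 16611 cell barcodes of that library and of the 44693 barcodes of the 3 libraries. They were selected on measured values: a barcode needed at least 2000 UMIs (unique molecular identifiers, each counting 1 captured transcript), at most 10% mitochondrial UMIs, at least 1.5% of UMIs from 8 fibroblast genes (*Dcn*, *Lum*, *Pdgfra*, *Col6a1*, *Col6a2*, *Col5a1*, *Pcolce* and *Col1a2*) and under 0.3% from 4 myeloid genes (*Lyz2*, *Tyrobp*, *Fcer1g* and *S100a9*). *Cilp* had to reach 0.05% of the cell's UMIs, *Col1a1* had to stay under 9%, *Pi16* under 0.05%, and *Tnmd* at no more than 1 UMI. The 3003 cells that met every limit except that for *Cilp* were the reference, called *Cilp*-low. Of the 4360 cells in this gate, 31.1% (95% interval 29.8 to 32.5) were therefore *Cilp*-high.

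The mice were adult male C57BL/6J. Their wounds were full-thickness excisions of the back skin in the methods, although the series text calls them incisional. Tissue was taken on Days 3, 7 and 14, pooled over several wounds, dissociated without a sort, and made into 1 library per day, so uninjured skin and replicate libraries are not part of the comparisons. Because the cells were chosen by their *Cilp* level, and the study has 1 library per day, differences between *Cilp*-high and *Cilp*-low cells are a description without a test. All intervals are 95% intervals for counting error only, and cells of 1 library are not replicates.

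Elastic fibres are made of elastin, secreted as soluble tropoelastin, laid down on microfibrils of fibrillin and cross-linked by lysyl oxidases. Fibulins, emilins and microfibril-associated proteins bind elastin or the microfibrils, and latent TGF-β binding proteins hold growth factor there. CILP, the cartilage intermediate layer protein, is a secreted matrix protein known for binding TGF-β1 and IGF1. In scars, elastic fibres are typically sparse and slow to return, which makes the cells that transcribe *Eln* in a healing wound of interest.

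The libraries held 5158, 22924 and 16611 barcodes on Days 3, 7 and 14, with 38133650, 120940799 and 112713257 UMIs. The *Cilp*-high cells of Day 14 contributed 15607066 UMIs and the *Cilp*-low cells 32060444. Their depths were close, with medians of 11291 and 10322 UMIs and 2895 and 2750 genes per cell, and the median mitochondrial share was 1.58% and 1.59%. Barcodes that occurred in both the Day 7 and Day 14 libraries numbered 111, of which 9 were *Cilp*-high cells, and without all shared barcodes the genes called below numbered 75 and 46 on Day 14 in place of 74 and 46.

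*Cilp* showed no gap at the limit. The reference held 1839 cells without a *Cilp* UMI and 1164 with at least 1, and the share of UMIs in the *Cilp*-high cells ran from 0.05% through a median of 0.117% to 1.18%, or from 2 to 165 UMIs with a median of 13. At least 10 *Cilp* UMIs were counted in 912 of the 1357 cells. Of all 1357 cells, 534 lay between 0.05% and 0.1%, 465 between 0.1% and 0.2%, 274 between 0.2% and 0.4%, and 84 above 0.4%. The 137 cells between 0.05% and 0.06% and the 148 cells between 0.04% and 0.05% had *Eln* at 1604 and 1110 CPM (UMIs of the gene per 1000000 UMIs of the summed cells), *Col8a1* at 212 and 199 CPM, and *Mgp* at 1538 and 1669 CPM. Just inside the limit, *Eln* was higher (1543 to 1667 CPM against 1061 to 1162 CPM) and *Mgp* lower, while the intervals of *Col8a1* overlapped. With few *Cilp* UMIs in many cells, counting error alone could fill a gap. These values therefore cannot tell a range from a separate group.

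**Figure D1:**
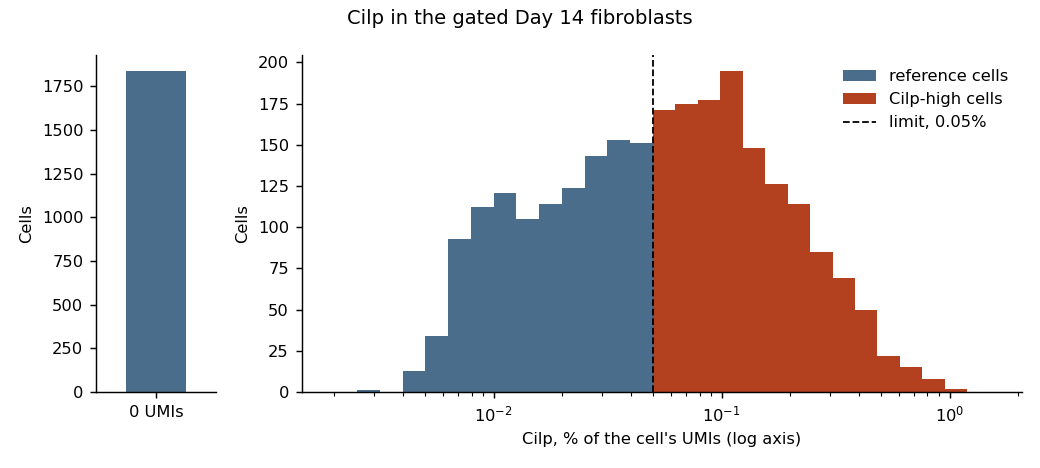
Number of gated Day 14 fibroblasts (y axes, with different scales in the panels) by the *Cilp* share of each cell's UMIs. The left bar holds the 1839 cells without a *Cilp* UMI. The right panel holds the others on a log axis, with the *Cilp*-low cells in blue and the *Cilp*-high cells in red. The dashed line is the limit of 0.05%, with no gap in the counts beside it.

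The 6 genes that give the cells their label were all higher in the *Cilp*-high cells. *Cilp* itself (chr9:65265180-65280605), which the selection used, stood at 1618 CPM (1598 to 1638) against 93.4 CPM (90.1 to 96.9). *Eln* (chr5:134702593-134747323), encoding tropoelastin, stood at 2905 CPM (2878 to 2931) against 517 CPM (509 to 525), a ratio of 5.62. For *Mgp* (chr6:136872435-136875823), a vitamin K-dependent inhibitor of calcification, the levels were 2581 CPM (2556 to 2606) and 1130 CPM (1118 to 1141), a ratio of 2.28. *Col8a1* (chr16:57624258-57754737), a short-chain collagen, had 517 CPM against 67.1 CPM, a ratio of 7.70, and *Fbln7* (chr2:128862981-128897034), a fibulin, 283 CPM against 125 CPM, a ratio of 2.27. The lowest ratio was that of *Itgbl1* (chr14:123659971-123975618), encoding an integrin β-like secreted protein, with 428 CPM against 257 CPM and a ratio of 1.67. Under other ways of processing, *Eln* ranged from 2.09 to 3.29 around its log2 ratio of 2.49 and *Col8a1* from 2.35 to 4.06 around 2.94, each lowest with cells thinned to 2000 UMIs and highest against reference cells without a *Cilp* UMI. For ratios with thinned cells, the cells were gated and split again on the thinned counts, into 1584 *Cilp*-high and 2614 *Cilp*-low cells. Such ratios therefore compare other groups of cells than the main ratios. Positions are those of the mouse build GRCm38.

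The label genes were found in more *Cilp*-high than *Cilp*-low cells, and the share depended on depth. After every cell was thinned to 2000 UMIs, an *Eln* UMI was found in 67.9% of *Cilp*-high cells (65.3 to 70.4) and 33.5% of *Cilp*-low cells (31.8 to 35.3). Macrophage-gated cells of the same library, which should lack elastin, gave 8.04% (6.70 to 9.55), at an unthinned median depth of 4450 UMIs. Without thinning, the shares were 84.6%, 64.3% and 16.5%. *Mgp* was found after thinning in 75.6% of *Cilp*-high, 49.95% of *Cilp*-low and 5.25% of macrophage-gated cells. The same shares were 39.1%, 8.29% and 1.84% for *Col8a1*, 35.8%, 18.3% and 0.613% for *Fbln7*, and 52.8%, 34.7% and 2.18% for *Itgbl1*, and at full depth these 3 genes were found in 63.2%, 72.1% and 89.9% of *Cilp*-high cells. Each thinned share in both fibroblast groups lay above that of the macrophage-gated cells. Even at full depth, 209 *Cilp*-high cells had no *Eln* UMI.

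Beyond the label, a gene was called higher or lower when its CPM differed by at least 1.5-fold, among the 2585 genes with at least 50 CPM in 1 group and at least 10 UMIs in each. On Day 14, 74 genes (2.86%) were higher and 46 (1.78%) lower in the *Cilp*-high cells, and the median log2 ratio over all of them was 0.03. These shares are the background for the gene lists that follow. A gene far below 50 CPM in 1 group could pass only through the other group, which fixed its call. The highest ratio of all belonged to *Thbs4* (chr13:92751590-92794818), a thrombospondin of tendon and muscle matrix, with 317 CPM (308 to 326) against 13.5 CPM (12.3 to 14.8), or 23.5-fold. That is a log2 ratio of 4.55, which lay between 3.72, with cells thinned to 2000 UMIs and split again, and 5.47, without the 1% of cells in each group that had the most *Thbs4* UMIs. Those few cells held 58.9% of the gene's UMIs in the reference and 22.6% in the *Cilp*-high cells. *Thbs4* was nevertheless found in a minority of the cells, 21.2% of the *Cilp*-high cells after thinning against 1.77% of the *Cilp*-low cells and 0.272% of the macrophage-gated cells.

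Elastic fibre genes differed among themselves, also within a family. Of the 25 listed genes, 19 passed the limits on level, with 8 higher, 2 lower and a median log2 ratio of 0.49. Besides *Eln* and *Fbln7*, the higher genes were *Mfap4*, a microfibril-associated protein that binds tropoelastin (1853 CPM against 713 CPM, log2 ratio 1.38), the cross-linking enzyme *Lox* (702 against 379 CPM, 0.89), the fibrillin *Fbn2* (341 against 200 CPM, 0.77), *Emilin1* (0.75), *Mfap5* (0.73) and the latent TGF-β binding protein *Ltbp3* (0.64). In contrast, the main fibrillin *Fbn1* stood at 1233 CPM against 1198 CPM, a log2 ratio of 0.04 (0.02 to 0.07). *Fbln5*, a fibulin required for elastic fibre assembly, was likewise near equal at 78.0 CPM against 84.8 CPM (−0.12, interval −0.22 to −0.02), *Loxl1*, the lysyl oxidase most tied to elastin, was at 0.49 and *Mfap2* at 0.17. The 2 lower genes were *Efemp1*, a fibulin of the same family (50.6 CPM against 211 CPM, −2.06, and −1.44 with thinned cells), and *Emilin2* (−0.78). Summed over all 25 genes, the list took a median of 1.15% of a *Cilp*-high cell's UMIs and 0.668% of a *Cilp*-low cell's.

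The collagens that make up most of the scar matrix were at like levels in both groups. None of the 7 fibrillar collagen genes that passed was called, with a median log2 ratio of 0.01, and *Col1a1*, *Col1a2* and *Col3a1* had log2 ratios of −0.07, −0.07 and −0.12. *Col1a1* was limited by the selection in both groups. Of 11 other collagen genes that passed, *Col8a1* and *Col12a1*, a fibril-associated collagen (0.81), were higher, while *Col8a2*, which encodes the partner chain of *Col8a1*, stood at 11.4 CPM against 1.37 CPM, below the limit on level. Outside these lists, the collagen VI chain *Col6a5* was lower (10.6 CPM against 57.0 CPM, −2.42), the lowest ratio of any gene not in a list. The basement membrane collagen *Col4a1* had a log2 ratio of −0.00 and *Col15a1* of 0.36. Among the small leucine-rich proteoglycans, which coat collagen fibrils, 3 of 8 were higher: *Aspn* (2277 CPM against 1307 CPM, 0.80), *Podn* (0.78) and *Bgn* (0.71). *Dcn* and *Lum* of the same family, which also served in the fibroblast gate, were at −0.09 and −0.03. *Fmod* was below the limit on level but stood at 46.7 CPM against 9.42 CPM.

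**Figure D2:**
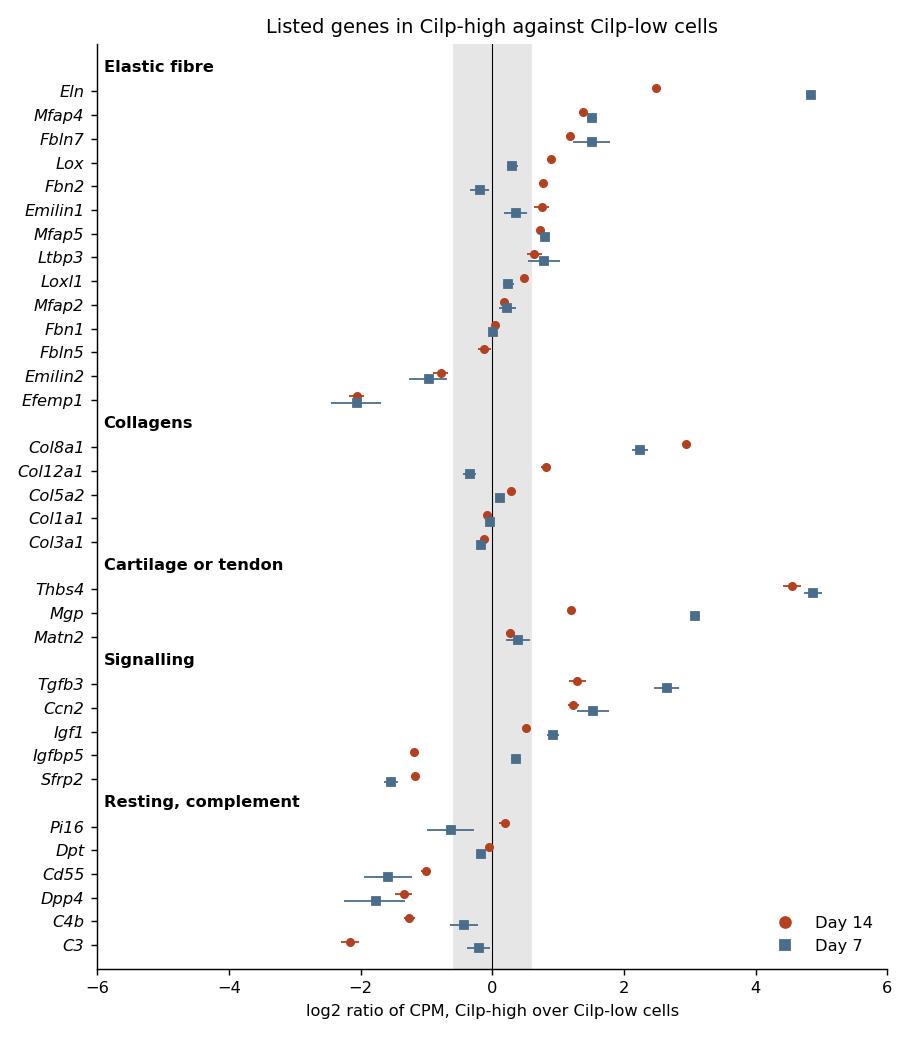
Log2 ratio of CPM in *Cilp*-high over *Cilp*-low cells (x axis) for genes of the lists (y axis), on Day 14 in red circles and on Day 7 in blue squares where the gene passed the limits on level. Bars are 95% intervals for counting error, and the grey band marks less than 1.5-fold. *Eln*, *Mfap4*, *Fbln7*, *Col8a1*, *Thbs4* and *Mgp* lie to the right of the band on both days, *Fbn1*, *Col1a1* and *Col3a1* within it, and *Efemp1*, *Sfrp2*, *Cd55* and *Dpp4* to its left.

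Several genes typical of cartilage were absent or at low levels on Day 14. Of 13 cartilage and tendon matrix genes other than *Cilp*, 3 passed the limits, and *Thbs4* and *Mgp* were higher while *Matn2* was at 0.28. *Comp*, *Chad* and *Cytl1* had no UMI in the *Cilp*-high cells, which allows up to 0.192 CPM, and *Acan*, the core protein of cartilage aggrecan, was at 1.99 CPM against 0.842 CPM (log2 ratio 1.24, interval 0.45 to 2.04). *Sox9*, a regulator of chondrocytes, stood at 42.2 CPM against 41.8 CPM on Day 14, whereas on Day 7 it was higher (51.2 CPM against 26.0 CPM, 0.98). Again without *Cilp*, 3 of 4 genes of the list that passed on Day 7 were higher, with a median of 2.03. Of these, *Sox9* and *Thbs4* passed only through the *Cilp*-high cells, which fixed their calls. Without the 1% of cells richest in it, *Sox9* was below the limit on level on Day 7 (44.9 CPM against 20.8 CPM). The tendon regulator *Scx* had 30 UMIs against 3, or 1.92 CPM against 0.0936 CPM, below the limit on level. The vitamin K-dependent proteins *Gas6* (0.16) and *Pros1* (−0.09) and the enzyme *Vkorc1* (0.11), which recycles vitamin K, were not called alongside *Mgp*.

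Genes that process or degrade matrix were called in both directions. In the collagen processing list, 2 of 15 genes were higher, *Lox* and the lysyl hydroxylase *Plod2* (0.78), and 1 was lower, *Pcolce2*, an enhancer of procollagen cleavage (−1.19), with a list median of 0.09. The collagen chaperone *Serpinh1* was at 0.01 and *P4ha2* at −0.06. Among 15 proteases and inhibitors, *Adamts5*, an aggrecanase, was lower (270 CPM against 473 CPM, −0.81), and the others, among them *Timp3* (0.50), *Fap* (0.40), *Mmp2* (−0.02) and *Htra1* (−0.43), stayed within 1.5-fold.

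Signalling genes were called in both directions. *Tgfb3*, a TGF-β ligand, was at 69.7 CPM against 28.4 CPM (1.29, interval 1.16 to 1.42), whereas *Tgfb2* was at −0.10, *Tgfbr2* at −0.14 and *Tgfbi* at 0.00. *Gdf10*, a ligand of the same superfamily, was lower (35.3 CPM against 76.6 CPM, −1.12), so that 1 of 8 genes of the TGF-β and BMP list was called in each direction. After thinning, *Gdf10* was at −0.56 and no longer called. In the IGF list, *Igfbp5*, an IGF binding protein, was the only called gene of 8 and was lower (452 CPM against 1030 CPM, −1.19), while *Igf1* was at 0.51, *Igfbp7* at 0.39 and *Igfbp4* at −0.39. Among 6 Wnt modulators, with a median of 0.46, the CCN proteins *Ccn5* (0.96) and *Ccn4* (0.91) and the secreted antagonist *Sfrp1* (0.77) were higher, and *Sfrp2*, another antagonist of that family, was lower (491 CPM against 1113 CPM, −1.18).

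Of the contractile genes of myofibroblasts, *Acta2*, *Tagln* and *Myl9* were low in both groups. *Tnc*, encoding tenascin C (474 CPM against 125 CPM, 1.92, and 2.71 against cells without a *Cilp* UMI), and *Ccn2*, a matricellular protein and known target of TGF-β (169 CPM against 71.9 CPM, 1.23), were higher, and they were the 2 called of 7 genes that passed in the myofibroblast list. After thinning, *Tnc* was found in 24.5% of *Cilp*-high and 8.29% of *Cilp*-low cells, and 1% of the *Cilp*-low cells held 49.9% of its reference UMIs. Within the clusters described further on, its log2 ratio ran from 0.14 in cluster 8 (interval −1.14 to 1.33) to 2.49 in cluster 1. *Postn*, encoding periostin, was at 4979 CPM against 3494 CPM (0.51). The genes that passed had a median log2 ratio of 0.51, and the whole list summed to 9031 CPM against 6844 CPM. *Acta2* was at 33.7 CPM against 26.9 CPM, *Tagln* at 30.6 against 31.6 CPM and *Myl9* at 22.8 against 22.4 CPM. *Tpm1*, also contractile, passed the limit on level and was not called. None of the 8 cell cycle genes reached 50 CPM, and *Mki67* was at 8.33 CPM against 7.39 CPM.

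Called genes of the resting fibroblast list and of the chemokine and complement list were all lower. *Scara5* and *Dpp4* in the first list and *C3* and *Saa3* in the second passed only through the *Cilp*-low cells. These genes could therefore be called only as lower. All 11 genes of the universal and resting fibroblast list passed, with 5 lower, 0 higher and a median log2 ratio of −0.52: *Scara5* (29.2 CPM against 82.5 CPM, −1.50), *Dpp4* (38.2 against 96.7 CPM, −1.34), *Cd55* (107 CPM against 214 CPM), *Ly6c1* (−0.92) and *Anxa3* (−0.71). *Pi16*, which the selection limited, was at 0.19 and *Dpt* at −0.05. Among 17 chemokine and complement genes, 6 were lower and 0 higher, with a median of −0.37. They were the complement components *C3* (30.1 CPM against 134 CPM, −2.16) and *C4b* (88.2 against 211 CPM, −1.26), the acute phase protein *Saa3* (−1.61) and the chemokines *Cxcl12* (−0.92), *Ccl11* (−0.83) and *Ccl8* (−0.72), while *Cxcl1* (0.13), *Ccl2* (−0.13), *Ccl7* (0.02) and *Il6* (−0.05) were close to equal and *Cxcl14* (0.48) and *Il33* (0.35) had the highest ratios of the list. The *Saa3* value rests on few cells: of its 2240 UMIs in the reference, 1374 came from 9 *Cilp*-low cells of cluster 2, a cluster described further on that had *Saa3* among its leading genes and was richest in *Cilp*-high cells. Outside that cluster *Saa3* stood at 35.0 CPM in *Cilp*-high and 29.8 CPM in *Cilp*-low cells, and in the *Cilp*-high group 98.0% of it came from 10 cells. With *Cilp* at 0.1% or more, against the same reference, the ratio was −5.02. In the papillary and reticular fibroblast list, only 4 of 11 genes passed. Of these, *Crabp1*, a marker of papillary fibroblasts, was lower (10.4 CPM against 57.8 CPM, −2.48, with 71.9% of the reference UMIs in 1% of its cells). *Mfap4* and the markers of reticular fibroblasts *Mest* (0.88) and *Dlk1* (0.77) were higher, although *Dlk1* was lower on Day 7 (−0.92). There *Dlk1* passed only through the *Cilp*-low cells, as *Crabp1* did on Day 14.

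None of the 11 listed transcription factors that passed reached 1.5-fold. They had a median log2 ratio of −0.04, between *Nr4a1* at 0.47 and *Egr1* at −0.30, and *Twist1* and *Runx1* were at −0.04 and 0.20. *Meox1*, below the limit on level, stood at 19.2 CPM against 5.05 CPM. Outside the lists, the 12 highest ratios were those of *Fibin* (119 CPM against 36.8 CPM, 1.70), *C1qtnf3* (677 against 227 CPM, 1.57), *Hmcn2*, encoding hemicentin 2 (1.44), *Sema5a*, a semaphorin (1.39), the non-coding RNA *H19* (1.22), *Ctla2a*, *Rgs2*, *Angptl1* (517 against 234 CPM, 1.14), the proprotein convertase *Pcsk5* (1.12), *Dtd1*, the thrombin receptor *F2r* (1.06) and *Rrad*. With thinned cells *H19* (0.52) and *F2r* (0.57) were below 1.5-fold. The 12 lowest were *Col6a5*, *Fabp4* (−1.38), *Gm26771*, *Gda*, *Sned1*, *Lgi2*, the BMP antagonist *Chrdl1* (−1.01), the scavenger receptor for CXCL12 *Ackr3* (−0.92), *Opcml*, *Plac8*, *Scara3* and *Vldlr*. For *Fabp4*, 1% of the cells held 73.0% of the UMIs in *Cilp*-high and 80.2% in *Cilp*-low cells, and without them its log2 ratio was −0.94, at levels below the limit.

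The study chose its own genes for fibroblast subclusters on these same samples, so counts over them are not independent evidence. Its 8 genes for subcluster F1 include *Cilp*, and of the 7 others, *Eln*, *Mgp* and *Smoc2* (0.87) were higher and 4 were not called. Of its 5 F4 genes that passed, *Mfap4* was higher and *Pcolce2* lower. Of its 9 candidate genes, *Itgbl1* was higher and *C3*, *C4b*, *Ccl11* and, from the few cells described above, *Saa3* were lower.

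Levels followed *Cilp* within the *Cilp*-high cells and within the reference. From the 1839 cells without *Cilp* through the 1164 *Cilp*-low cells with some to the 4 successive classes of *Cilp*-high cells, *Eln* was at 298, 797, 1929, 2830, 4284 and 5502 CPM. *Col8a1* went through 30.9, 113, 252, 443, 909 and 1478 CPM in the same classes, and *Mgp* through 818, 1528, 1777, 2446, 3693 and 5252 CPM. *Thbs4* had the widest range, at 8.79 and 19.5 CPM in the reference and 79.0, 182, 619 and 1778 CPM in the *Cilp*-high classes. *Sfrp2* ran the other way, at 1181, 1026, 726, 437, 231 and 51.8 CPM, as did *Igfbp5* (1153 to 160 CPM), *Efemp1* (265 to 17.3 CPM), *Ly6c1* (531 to 43.8 CPM) and *Dpp4* (117 to 16.1 CPM). *C3* was at 190, 63.4, 40.1, 28.8, 15.3 and 17.3 CPM, and the intervals of the last 2 classes overlapped for *C3*, *Efemp1* and *Dpp4*. *Fbn1*, at 1234, 1151, 1195, 1186, 1372 and 1291 CPM, and *Fbln5* kept within a narrow range. *Col1a1* was at 38555 CPM in the class from 0.2% to 0.4% and 31671 CPM above 0.4%, beside 43861 CPM in cells without *Cilp*. *Col3a1*, which the selection did not limit, was at 28996 CPM and 25488 CPM in the same classes, beside 34222 CPM in cells without *Cilp*.

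**Figure D3:**
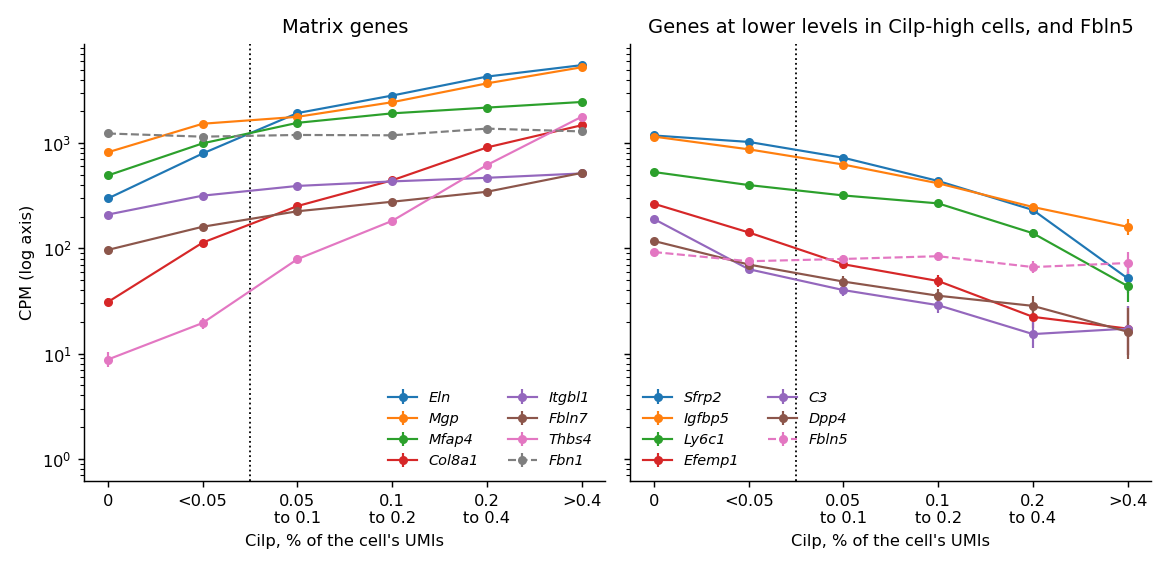
CPM of summed cells (y axis, log scale) in 6 classes of gated Day 14 fibroblasts by *Cilp* share (x axis), with bars for 95% counting intervals and a dotted line at the limit of 0.05%. *Eln*, *Mgp*, *Col8a1* and *Thbs4* are higher in each class than in the one before, *Fbn1* and *Fbln5* (dashed) are nearly level, and *Sfrp2*, *Igfbp5*, *Ly6c1*, *Efemp1* and *Dpp4* are lower in each class.

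The cells did not form 1 cluster when the listed genes were withheld. Clustering the 4360 gated cells on 1500 variable genes that excluded the 281 genes of the lists gave 12 clusters, and the *Cilp*-high share ranged from 6.71% to 63.2%. Cluster 2, with 736 cells, had the highest share, 63.2% (59.6 to 66.7), yet it held only 34.3% of the *Cilp*-high cells. Its leading genes were *Thbs4*, *Saa3*, *Fmod* and *Col8a1*, but *Saa3* was found there in 5 of 465 *Cilp*-high and 9 of 271 *Cilp*-low cells, with up to 513 UMIs in 1 of the latter. Cluster 1 (910 cells, 33.5%) held another 22.5% and cluster 4 (537 cells, 30.0%) 11.9%. The lowest shares were in cluster 9 (6.71%), led by *C6*, *Inmt* and *C3*, and in cluster 11 (9.01%), led by *Prss35* and *Crabp1*. Clusters 7, 10 and 12 had among their leading genes *Il1b* and *H2-Eb1* of immune cells, *Rab25* and *Top2a* of epithelial and dividing cells, and *Cldn5* and *Rgs5* of vessels, and they held 4.94%, 3.54% and 1.03% of the *Cilp*-high cells.

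The clusters also separated *Cilp* from elastin. Among *Cilp*-high cells, *Eln* was at 4000 CPM in cluster 2, 2883 CPM in cluster 1, 4146 CPM in cluster 6 and 4218 CPM in cluster 8, but at 479 CPM in cluster 4, where *Cilp* itself was at 1657 CPM. The 161 *Cilp*-high cells of cluster 4 had *Tnc* at 1915 CPM, beside 368 CPM in those of cluster 2, and *Mgp* at 2323 CPM, beside 2229 CPM in the *Cilp*-low cells of their own cluster. In cluster 8, *Col8a1* was at 26.5 CPM in *Cilp*-high and 30.4 CPM in *Cilp*-low cells while *Mfap4* was at 3930 CPM and 1745 CPM. Within each of the 7 clusters that had at least 50 *Cilp*-high cells, *Eln* was higher in *Cilp*-high than in *Cilp*-low cells, with log2 ratios from 1.58 to 3.06, and *Thbs4* likewise, from 2.16 to 5.64. The highest of these ratios, and the lowest for *C3*, were those of cluster 7, led by immune genes, and over the other 6 clusters *Eln* reached 2.41, *Thbs4* 4.78 and *C3* −1.72. *Efemp1* was lower in all 7, from −0.52 to −2.06, as was *C3*, from −1.01 to −3.35, whereas the interval for *Dpp4* included 0 in cluster 6. The label gene *Itgbl1* was higher in all 7, but by less than 1.5-fold in clusters 1, 2, 3 and 8, with log2 ratios of 0.31, 0.37, 0.56 and 0.46. *Crabp1*, among the lowest genes over all clusters, had intervals that included 0 in clusters 1, 3 and 4 and was higher in cluster 8 (99.0 CPM against 59.8 CPM, log2 ratio 0.73, interval 0.19 to 1.26). *Saa3* had no common direction, at 77.4 CPM against 7.58 CPM in cluster 1 and 0.899 CPM against 455 CPM in cluster 2.

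**Figure D4:**
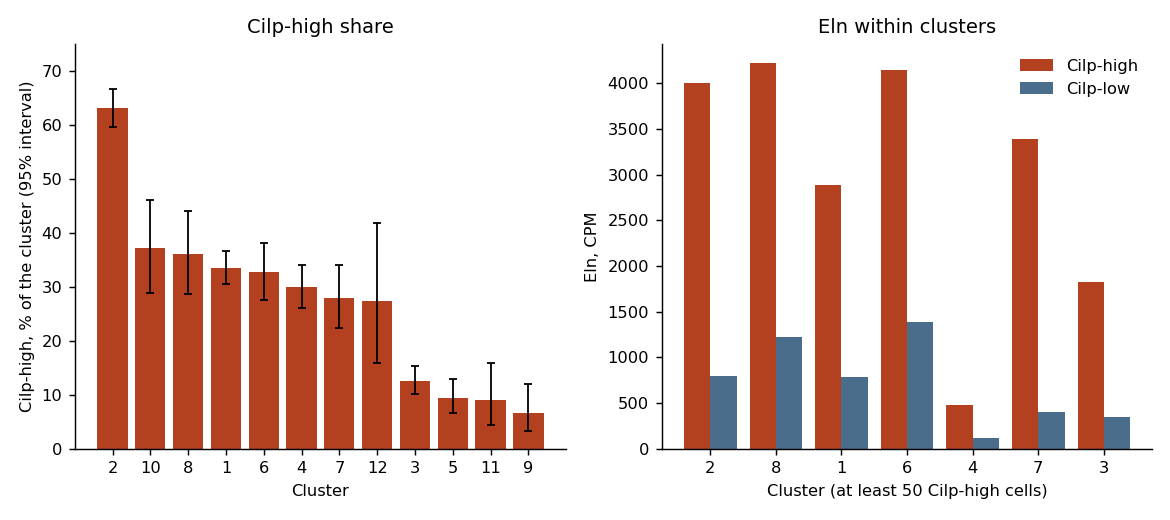
Left, share of *Cilp*-high cells (y axis, percent, with exact 95% intervals) in 12 clusters of gated Day 14 fibroblasts (x axis) made without the listed genes; cluster 2 stands highest at 63.2%. Right, *Eln* in CPM in the *Cilp*-high (red) and *Cilp*-low (blue) cells of the 7 clusters with at least 50 *Cilp*-high cells, where cluster 4 has the lowest bars, 479 and 119 CPM.

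The limits on *Tnmd*, *Col1a1* and *Pi16* had left out fibroblasts that also carried *Cilp*. Among 936 cells with over 1 *Tnmd* UMI, 26.5% reached the *Cilp* limit, as did 14.3% of 725 cells with *Col1a1* at 9% or more and 21.2% of 1498 cells with *Pi16* at 0.05% or more, groups that share some cells. In each of them, *Eln* was higher in the cells that reached the *Cilp* limit, with log2 ratios of 2.19, 2.07 and 3.02, and *Thbs4* had ratios of 3.97, 4.74 and 6.38. *Col8a1* (2.13, 4.23 and 2.83) and *Mgp* (2.16, 2.69 and 2.53) ran the same way. Lower genes varied between these groups: *Efemp1* was at −0.59, −0.43 and −2.41, and *Sfrp2* at −0.20, 0.77 and −1.18. Of the genes higher in the main comparison, without *Cilp*, 44 of the 64 that passed in the *Tnmd* group were also higher there, beside 4.19% of all genes tested, as were 32 of 47 in the *Col1a1* group (beside 6.74%) and 62 of 66 in the *Pi16* group (beside 5.89%). Of the lower genes, 6 of 29 were also lower in the *Tnmd* group (beside 1.26%), 9 of 27 in the *Col1a1* group (beside 2.65%) and 32 of 36 in the *Pi16* group (beside 6.46%). The limit on level fixed some of these calls too, as for *Thbs4* in the *Tnmd* and *Pi16* groups, and such genes were not counted apart. These groups come from the same library, and the difference between the directions was not tested.

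Across the days, *Cilp* in fibroblasts of the same gate had a Day 3 level of 3.62 CPM (interval 2.75 to 4.68), a Day 7 level of 51.7 CPM (49.9 to 53.5) and a Day 14 level of 593 CPM (586 to 599). The *Cilp*-high share was 0.647% of 309 cells (0.0785 to 2.32) on Day 3, 2.83% of 5236 cells (2.39 to 3.31) on Day 7 and 31.1% on Day 14. Median depths were 48996, 11013 and 10584 UMIs. With the gated cells thinned to 5000 UMIs, the shares were 0 of 305 cells, which allows up to 0.984% by the 3 counts that 0 cannot exclude, then 2.98% of 4903 and 31.3% of 3870, with 4, 333 and 490 shallower cells left out. With cells thinned to 2000 UMIs before gating, where the limit equals 1 UMI, they were 1.12%, 5.56% and 37.7%. Macrophage-gated cells reached the limit in 0 of 247, 0 of 2211 and 2 of 1468 cells. *Eln* in the whole gate was at 32.6, 142 and 1299 CPM on the 3 days, *Mgp* at 5.49, 169 and 1605 CPM, *Itgbl1* at 8.11, 88.0 and 313 CPM and *Col8a1* at 70.8, 89.1 and 214 CPM, whereas *Tnc* was at 708, 841 and 239 CPM. Since each day is 1 library, day and library cannot be told apart.

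The 148 *Cilp*-high cells of Day 7 gave the same comparison in another library, selected there by the same limits and again without a replicate. On Day 7, 121 of 2842 genes (4.26%) were higher and 114 (4.01%) lower than in the 5088 *Cilp*-low cells, with a median log2 ratio of −0.04. All 6 label genes were higher: *Eln* at 2392 CPM (2315 to 2470) against 83.1 CPM (80.8 to 85.4), *Mgp* at 1196 against 142 CPM, *Col8a1* at 386 against 81.3 CPM, *Fbln7* at 75.1 against 26.4 CPM, *Itgbl1* at 218 against 84.6 CPM and, by the limit itself, *Cilp*. *Thbs4* stood at 485 CPM against 16.5 CPM, or 4.87 on the log2 scale beside 4.55 on Day 14. The level of *Eln* in *Cilp*-high cells was therefore similar on both days, 2392 and 2905 CPM, while that of the *Cilp*-low cells differed more, 83.1 and 517 CPM.

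Leaving out *Cilp*, which selected the cells on both days, 64 genes higher on Day 14 passed the limits on Day 7 and 43 of them (67.2%) were also higher there, which were 43.9% of the 98 higher genes of Day 7 that passed on both days. The lower genes overlapped in 20 of 37 (54.1%), which were 29.4% of 68. Both shares lie above the background of 4.26% and 4.01%, but the limit on level fixed some of these calls. *Thbs4* and *Fbln7*, for example, passed on Day 7 only through the *Cilp*-high cells. Such genes were not counted apart, so the shares do not measure agreement between the days. Across the 2414 genes other than *Cilp* that passed on both days, Pearson's r of the log2 ratios was 0.63 and Spearman's rho 0.45, a description across genes, which are not independent replicates.

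The chemokine and complement list had a median of −0.46 on Day 7, beside −0.37 on Day 14, with different members called. Of the 6 genes lower on Day 14, *Saa3* was lower on Day 7 too (15.5 CPM against 592 CPM, −5.25), while *Ccl8* (−0.58), *C4b* (−0.42), *Ccl11* (−0.37), *C3* (−0.20) and *Cxcl12* (−0.03) were not called. *Il6* was lower on Day 7 (117 CPM against 243 CPM, −1.05) and *Cxcl14* higher (103 CPM against 19.3 CPM, 2.41). *Saa3* passed there only through the *Cilp*-low cells and *Cxcl14* only through the *Cilp*-high cells, which fixed their calls. Without the 1% of cells richest in it, which held 56.3% of its reference UMIs, *Cxcl14* was at 3.27. *Acta2* was lower in *Cilp*-high cells on Day 7 (117 CPM against 325 CPM, −1.48). The 4 cell cycle genes that passed there were all lower, with a median of −2.16, *Mki67* among them at 11.7 CPM against 57.5 CPM. All 4 passed only through the *Cilp*-low cells, which fixed their calls. In the *Cilp*-high group, 66.7% of the *Mki67* UMIs came from 2 cells. Without the 1% of cells richest in the gene, *Mki67* (3.96 CPM against 40.6 CPM) and *Top2a* were below the limit on level. Other collagens were higher on Day 7 in 6 of 11, including *Col15a1* (2.07), *Col4a1* (1.74) and *Col4a2* (1.65), against 2 of 11 on Day 14. Summed endothelial markers on Day 7 were at 33.0 CPM against 17.4 CPM, with *Cdh5* at 7.77 CPM against 3.33 CPM (1.22, interval 0.25 to 2.06) and *Cldn5* at 5.18 CPM against 1.39 CPM (1.90, interval 0.64 to 2.94), pericyte markers at 49.2 CPM against 68.1 CPM, and Schwann cell markers at 13.6 CPM against 4.16 CPM. Their part in the collagen values was not tested. *Lox*, *Fbn2*, *Plod2* and *Col12a1*, all higher on Day 14, had Day 7 log2 ratios of 0.31, −0.19, −0.33 and −0.34. *Fbn1* was level on both days, at 0.01 on Day 7.

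**Figure D5:**
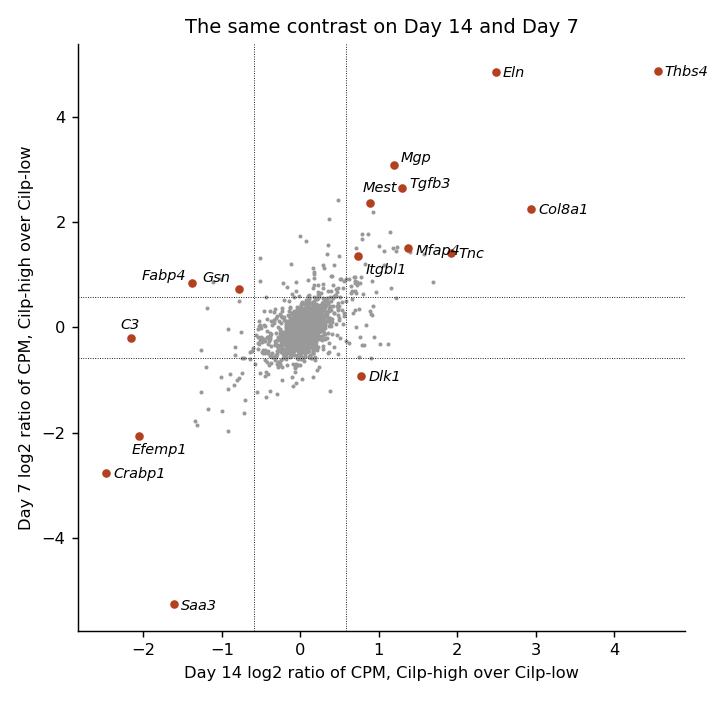
Log2 ratio of CPM in *Cilp*-high over *Cilp*-low cells on Day 14 (x axis) and Day 7 (y axis) for the 2414 genes that passed on both days, without *Cilp*. Each point is a gene, red points are labelled, and dotted lines mark 1.5-fold. *Thbs4*, *Eln*, *Col8a1*, *Mgp* and *Tgfb3* lie in the upper right, *Crabp1* and *Efemp1* in the lower left, and *Dlk1*, *Fabp4* and *Gsn* in opposite corners.

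Markers of other cell types were scarce in both groups of Day 14, and their part in the differences above was not tested. Summed over each list, macrophage markers took 320 CPM in *Cilp*-high and 386 CPM in *Cilp*-low cells, keratinocyte markers 245 and 239 CPM, pericyte markers 67.0 and 86.9 CPM, endothelial markers 18.4 and 17.8 CPM, T cell markers 3.78 and 3.21 CPM, Schwann cell markers 10.5 and 24.7 CPM and skeletal muscle markers 8.39 and 3.84 CPM. Chondrocyte markers took 44.2 and 42.8 CPM, nearly all of it *Sox9*, and *Col2a1* and *Matn1* had no UMI in *Cilp*-high cells. Osteoblast markers were at 0.192 CPM in *Cilp*-high and 1.84 CPM in *Cilp*-low cells, and adipocyte markers at 0.384 and 0.125 CPM. The 8 dissociation stress genes took 7976 and 9015 CPM, and none was called, with a median log2 ratio of −0.20.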

How the data were processed

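Single-cell suspensions of the wounds were captured with droplet 3′ chemistry, 1 library per day. The authors deposited UMI counts per gene and cell barcode, made per the submitters' processing notes with Cell Ranger 6.0.0 and the mm10 build. The lowest total of a deposited barcode was 500 UMIs. Of 32285 gene identifiers, 32158 were matched to a symbol, and gene positions came from the GRCm38 annotation (GENCODE M21).

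Cells were gated by the limits given above, and raw counts were summed over *Cilp*-high and over *Cilp*-low cells of a day and expressed as CPM. A ratio of CPM was called at 1.5-fold, among genes other than mitochondrial ones with at least 50 CPM in 1 group and at least 10 UMIs in each. With 1 library per day no model was fitted and no p-value given. Intervals were exact Poisson for CPM, exact conditional binomial for ratios and Clopper-Pearson for shares, and captured molecules of 1 library do not measure the spread between animals. Macrophage-gated cells had at least 1% of UMIs from the 4 myeloid genes and under 0.3% from the 8 fibroblast genes. Clusters came from 20 principal components, 15 neighbours and the Leiden method at resolution 0.6 (leidenalg 0.10.2). Python 3.11.15, numpy 2.4.6, scipy 1.17.1, pandas 2.3.3 and scikit-learn 1.9.0 were used, and the ratio step was tested on simulated data.

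The members and gene lists were chosen with earlier results of these data known. Named genes are members of those lists, those of highest and lowest ratio first, and the 12 highest and 12 lowest ratios outside them. *Col8a2*, *Fmod*, *Meox1*, *Scx* and the imprinted genes were singled out after their values were seen. Doublets were kept in the main values. As an alternative, the cells with the highest scores against simulated doublets were removed, 838 of 12620 on Day 14. Other alternatives were another depth minimum, mitochondrial limit, *Cilp* limit, scaling, weighting of cells, limit on level and thinning. Leaving out shared barcodes, using a reference without any *Cilp* UMI thinning to 5000 UMIs and, gene by gene, leaving out the 1% of cells in each group with the most UMIs of that gene were chosen after seeing the data.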

Additional observations from a re-analysis of the deposited data

Results flagged for a closer look

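A set of 5 genes was called in opposite directions on the 2 days, and this difference between the days was not tested, since each day is 1 library. *Dlk1*, a membrane protein of fetal and reticular fibroblasts, was higher in *Cilp*-high cells on Day 14 (104 CPM against 60.7 CPM, log2 ratio 0.77, interval 0.68 to 0.87) and lower on Day 7 (29.2 CPM against 55.1 CPM, −0.92, interval −1.38 to −0.50). The other 4 genes were lower on Day 14 and higher on Day 7. Of the 64 higher genes of Day 14 that passed on Day 7, without *Cilp*, 1 was lower there, beside 4.01% of all genes tested. Of the 37 lower genes that passed, 4 were higher there, beside 4.26%. *Chrdl1*, a secreted BMP antagonist, had log2 ratios of −1.01 and 0.92, and *Gdf10*, a TGF-β family ligand, of −1.12 and 0.86. The Day 14 value of *Gdf10* was −0.56, below 1.5-fold, with cells thinned to 2000 UMIs. *Fabp4*, a fatty acid binding protein of adipocytes and capillary endothelium, had −1.38 and 0.84, but without the 1% of cells with the most of its UMIs it was below the limit on level on both days. *Dlk1* was below that limit in the same setting on Day 7, at 18.4 CPM against 39.6 CPM. *Gsn*, encoding gelsolin, which severs actin filaments, was the most abundant, at 1095 CPM against 1889 CPM on Day 14 (−0.79) and 834 CPM against 504 CPM on Day 7 (0.73). None of the 5 changed sign under any alternative on either day, except *Fabp4* on Day 7 under 1 of them.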

How the results depend on the processing

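No paired analysis was possible because each day had 1 library, and for the same reason no replicate could be left out. The *Cilp*-high share of 31.1% became 18.9% with a *Cilp* limit of 0.1% of UMIs and 37.7% after thinning to 2000 UMIs, where the limit equals 1 UMI. On Day 14, the 74 higher and 46 lower genes became 160 and 167 with a limit of 10 CPM in place of 50, which tests more genes. With the *Cilp* limit at 0.1%, the reference stayed under 0.05% and the cells between were left out, which leaves 823 *Cilp*-high cells on Day 14 and 78 on Day 7. The lower genes of Day 14 then numbered 71, and they numbered 73 against reference cells without a *Cilp* UMI, and 77 with CPM computed without the 50 most abundant genes, which lets 3706 genes pass. Higher genes made up 61.7% of calls in the main comparison, 55.2% without the most abundant genes and 48.9% with the limit of 10 CPM. On Day 7, the 121 higher and 114 lower genes became 475 and 450 with the limit of 10 CPM and 187 and 207 with the *Cilp* limit at 0.1%, and the higher genes 202 without the 50 most abundant. All other counts stayed within 1.5 times the main count, and after thinning 48 of the 74 and 34 of the 46 Day 14 genes and 67 of the 121 and 64 of the 114 Day 7 genes were still called. Of 56 named genes called on Day 14, all kept their direction at 1.5-fold or more under 8 of 10 settings, but some ratios moved by over 1.5 times: 5 with the *Cilp* limit at 0.1% (*Saa3* to −5.02, *Crabp1* to −3.31, *Col6a5* to −3.05, *Fabp4* to −2.19 and *Thbs4* to 5.15 on the log2 scale), 1 without doublets (*Fabp4* to −2.23), 6 after thinning (among them *Thbs4* to 3.72, *Col8a1* to 2.35, *Efemp1* to −1.44 and *Saa3* to −2.82) and 6 against cells without a *Cilp* UMI (among them *Eln* to 3.29, *Col8a1* to 4.06, *Thbs4* to 5.17 and *Tnc* to 2.71), and 3 without the 1% of cells richest in the gene (*Thbs4* to 5.47, *Tnc* to 2.57 and *Saa3* to −2.28). In that last setting the named genes *Saa3*, *Fabp4*, *Crabp1*, *Col6a5*, *Gm26771* and *Rgs2* were below the limit on level. *Fabp5*, 1 of the 46 lower genes, was also below it, at −0.05. After thinning, *H19*, *F2r* and *Gdf10* were below 1.5-fold, and *Cilp* had no ratio there or against cells without a *Cilp* UMI, by construction. With 148 cells, the Day 7 ratios have the wider intervals.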

Other observations

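Imprinted genes, expressed from 1 parental allele and many of them active in fetal growth, were looked at after *H19*, *Mest* and *Dlk1* had been seen among the higher genes, so their count is a description of a list chosen on its values. Of 18 genes, 12 passed the limits on Day 14, with 6 higher in *Cilp*-high cells, 0 lower and a median log2 ratio of 0.51, beside 2.86% higher among all genes tested. *H19* was at 109 CPM against 46.8 CPM (1.22, but 0.52 and so not called with cells thinned to 2000 UMIs), *Mest* at 0.88, *Zim1* at 68.0 CPM against 38.3 CPM (0.83), *Dlk1* at 0.77, *Plagl1*, a zinc finger regulator, at 177 CPM against 105 CPM (0.75) and *Peg3* at 314 CPM against 192 CPM (0.71). *Cdkn1c* (0.31), *Meg3* (0.23), *Rian* (0.20), *Ndn* (0.09) and *Grb10* (0.02) were not called. On Day 7, 2 of 10 were higher and 1 lower, with a median of 0.03: *Peg3* and *Mest* were the higher genes, the latter at 2.37, whereas *Dlk1* was at −0.92, *Plagl1* at −0.56 and *H19* at 0.56. *Dlk1* passed on Day 7 only through the *Cilp*-low cells.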
